A study of Mus musculus with 3 samples.

Results

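The gene set described here holds 31 of the 55357 genes counted in the files, chosen by name for their role in sterol synthesis, its SREBP control or fatty acid synthesis. It has 18 genes of sterol synthesis, 6 genes that control SREBP (among them the sterol carrier Stard4) and 7 genes of fatty acid synthesis.

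Cholesterol is made from acetyl-CoA through mevalonate, farnesyl diphosphate and squalene, and the genes of that route are switched on together by the transcription factor SREBP2. SREBP2 and its relative SREBP1 are held in the endoplasmic reticulum by SCAP and the INSIG proteins while sterol is plentiful, and are released, cut and sent to the nucleus when sterol runs low. SREBP1, which also responds to insulin and to the oxysterol receptor LXR, drives mainly the genes of fatty acid synthesis. Dividing cells need both products for new membrane, and tumour cells and activated immune cells commonly raise the pathway.

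These genes were followed through the cells of mouse tumours grown from 4T1, a mammary carcinoma line, in a comparison that asked how the cell makeup of the tumour changes when Cpt1a is depleted in the tumour line. Cpt1a encodes the enzyme that carries long-chain fatty acids into mitochondria for oxidation. The sgCPT1A tumour came from the line 4T1-sgCPT1A, whose genotype is given as knockdown, and the sgVC tumour from the line 4T1-sgVC, whose genotype is given as WT. Both were taken from female mice aged 8 to 10 weeks that were kept for 8 days with their tumours, and all cells of the digested tissue entered the libraries. The depletion was in the grafted line, so the stromal and immune cells of both tumours come from host mice for which no Cpt1a targeting is stated. The sources used here do not say whether the lines are clones or how many animals were pooled. Of the 3 samples listed, 2 had counts to analyse; whether the sgCPT1A counts include cells of the other sgCPT1A sample is not stated.

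With 1 library for each group there is no replicate and no test: no p-value is given, and every interval printed is an exact 95% interval for counting error alone. The sgCPT1A library held 7198 barcodes and 35557125 UMIs (unique molecular identifiers, each standing for 1 captured RNA molecule) and the sgVC library 9890 barcodes and 155948212 UMIs, and 18 barcodes occurred in both. After filtering, 6743 sgCPT1A and 9323 sgVC cells were grouped into classes by marker genes, with the 31 genes left out of the clustering. Tumour-like cells numbered 11 in sgCPT1A and 4460 in sgVC, so that tumour-like cells could be described in sgVC alone, and Cpt1a itself, with 1 UMI in the tumour-like cells of sgCPT1A and 2101 in those of sgVC, could not be checked there. 6 classes had at least 50 cells in each library, and in each of them at least 8 of the class's own markers, or all markers where the set is smaller, were seen in at least 10% of the cells. These were monocyte/macrophage-like (296 cells in sgCPT1A and 1367 in sgVC), dendritic-like (68 and 230), fibroblast-like (513 and 402), T-like (553 and 854), pericyte or smooth muscle-like (73 and 51) and neutrophil-like cells (5125 and 1796). Levels are the gene's UMIs scaled to 1000000 UMIs of the class (CPM), and a log2 ratio is sgCPT1A over sgVC.

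Promoters of the genes were searched for short motifs, and stretches of a few are printed below. RefSeq promoters (250 bases before to 50 after the start, GRCm38.p6) were at hand for 25 of the 31 genes, the others being Fdps, Sqle, Fdft1, Scd1, Scd2 and Stard4. The classical sterol regulatory element, to which SREBP binds, was searched as TCACNCCAC, the box of its partner NF-Y as CCAAT and the Sp1 box as GGGCGG, on both strands. CCAAT was found in 21 of 25 genes (84%), against 41.1% of all 27025 genes in the table, and GGGCGG also in 21 of 25 (84%), against 38.2%. The sterol regulatory element in this spelling was found in 1 of 25 (4%), Hmgcs1, against 1.44% of all genes. A match is a description of the letters and not a bound site. Below are the stretch upstream of Hmgcs1, which holds that element, and the stretches of the gene with the highest CPM, summed over the classes, among those with an entry in each of the 3 groups (Ebp, Insig1 and Acly, of which Ebp alone has a CCAAT match in the stretch shown). Each runs 5′ to 3′ along the gene, with capitals marking TCACNCCAC and CCAAT, or its reverse complement, and stops before the first annotated base of the gene. The Hmgcs1 stretch is chr13:119690154-119690350 (plus strand), that of Ebp chrX:8193513-8193662 (minus strand), that of Insig1 chr5:28071262-28071362 (plus strand) and that of Acly chr11:100528001-100528150 (minus strand).
Hmgcs1: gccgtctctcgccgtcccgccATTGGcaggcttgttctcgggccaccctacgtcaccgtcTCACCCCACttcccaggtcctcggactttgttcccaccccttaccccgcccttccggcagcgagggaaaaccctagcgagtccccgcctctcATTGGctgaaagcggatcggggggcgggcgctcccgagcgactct
Ebp: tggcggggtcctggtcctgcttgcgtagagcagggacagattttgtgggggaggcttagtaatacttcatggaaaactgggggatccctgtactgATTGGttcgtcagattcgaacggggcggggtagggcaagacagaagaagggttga
Insig1: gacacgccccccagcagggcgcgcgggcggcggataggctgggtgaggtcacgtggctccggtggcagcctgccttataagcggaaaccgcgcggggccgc
Acly: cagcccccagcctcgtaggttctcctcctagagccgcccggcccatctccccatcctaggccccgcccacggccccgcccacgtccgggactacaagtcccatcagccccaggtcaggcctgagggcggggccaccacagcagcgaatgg

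In the Hmgcs1 stretch the sterol regulatory element starts 137 bases before the gene's start and CCAAT, as its reverse complement, 176 and 45 bases before it.

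The sterol synthesis genes were lower in the sgCPT1A tumour in all 6 classes, while the fatty acid genes differed less in 5 of them. Summed over the 18 sterol genes, monocyte/macrophage-like cells had 177 CPM (159 to 195) in sgCPT1A and 589 CPM (574 to 605) in sgVC, a log2 ratio of -1.74 (-1.89 to -1.59), or 3.33-fold lower in sgCPT1A. Dendritic-like cells, which had the highest sterol level of the 6 classes in both libraries, had 349.8 CPM (309 to 395) in sgCPT1A and 952 CPM (909.8 to 995) in sgVC, a log2 ratio of -1.44 (-1.64 to -1.26). Fibroblast-like cells had 234 CPM (226 to 243) in sgCPT1A and 569 CPM (549.7 to 588) in sgVC, a log2 ratio of -1.28 (-1.35 to -1.21). These 3 classes were thus between 2.43-fold and 3.33-fold lower in sgCPT1A. T-like cells had 276 CPM (259 to 294) in sgCPT1A and 555 CPM (530.1 to 581) in sgVC, a log2 ratio of -1.01 (-1.12 to -0.89). In pericyte or smooth muscle-like cells the sum was 226 CPM (201 to 254) in sgCPT1A and 414 CPM (369 to 463) in sgVC, a log2 ratio of -0.87 (-1.11 to -0.63). Neutrophil-like cells, with the lowest sterol level of all, had 56.8 CPM (52.9 to 61) in sgCPT1A and 119 CPM (107 to 133) in sgVC, a log2 ratio of -1.07 (-1.25 to -0.88). None of the 6 pairs of intervals overlapped, though these cover counting error alone and not the spread between cells. The median over all genes tested in a class lay between -0.30 in neutrophil-like and 0.05 in pericyte or smooth muscle-like cells, so the sterol sum was also lower relative to the middle gene of each class.

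For the 7 fatty acid genes the sum in monocyte/macrophage-like cells was 179 CPM (161 to 197) in sgCPT1A and 222 CPM (212 to 231) in sgVC, a log2 ratio of -0.31 (-0.47 to -0.15). In fibroblast-like cells it was 270.2 CPM (261 to 279) in sgCPT1A and 337 CPM (322 to 352) in sgVC, a log2 ratio of -0.32 (-0.40 to -0.24). In dendritic-like cells it was 141 CPM (115 to 170.4) in sgCPT1A and 217 CPM (198 to 239) in sgVC, a log2 ratio of -0.63 (-0.95 to -0.32). The ratio was -0.19 (-0.39 to 0.01) in T-like and 0.16 (-0.14 to 0.46) in pericyte or smooth muscle-like cells, where both intervals reach past 0. Neutrophil-like cells were the exception: at 8.17 CPM (6.73 to 9.83) in sgCPT1A and 24.1 CPM (18.7 to 30.6) in sgVC, resting on 112 and 67 UMIs, they had the lowest fatty acid ratio of the 6 classes, -1.56 (-2.01 to -1.10). These fatty acid ratios depended on the cells counted: in dendritic-like cells the ratio was 0.049 with each cell thinned to 1000 UMIs, and in T-like cells 0.20 with thinning and -0.77 with doublets kept. In the other 5 classes the interval of the sterol ratio lay wholly below that of the fatty acid ratio. The 6 control genes had ratios closer to 0 than the sterol genes in every class: -0.44 (-0.62 to -0.27) in monocyte/macrophage-like, -0.47 (-0.78 to -0.17) in dendritic-like, -0.46 (-0.57 to -0.36) in fibroblast-like, -0.32 (-0.47 to -0.17) in T-like, -0.16 (-0.52 to 0.22) in pericyte or smooth muscle-like and -0.82 (-1.003 to -0.64) in neutrophil-like cells.

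**Figure D1:**
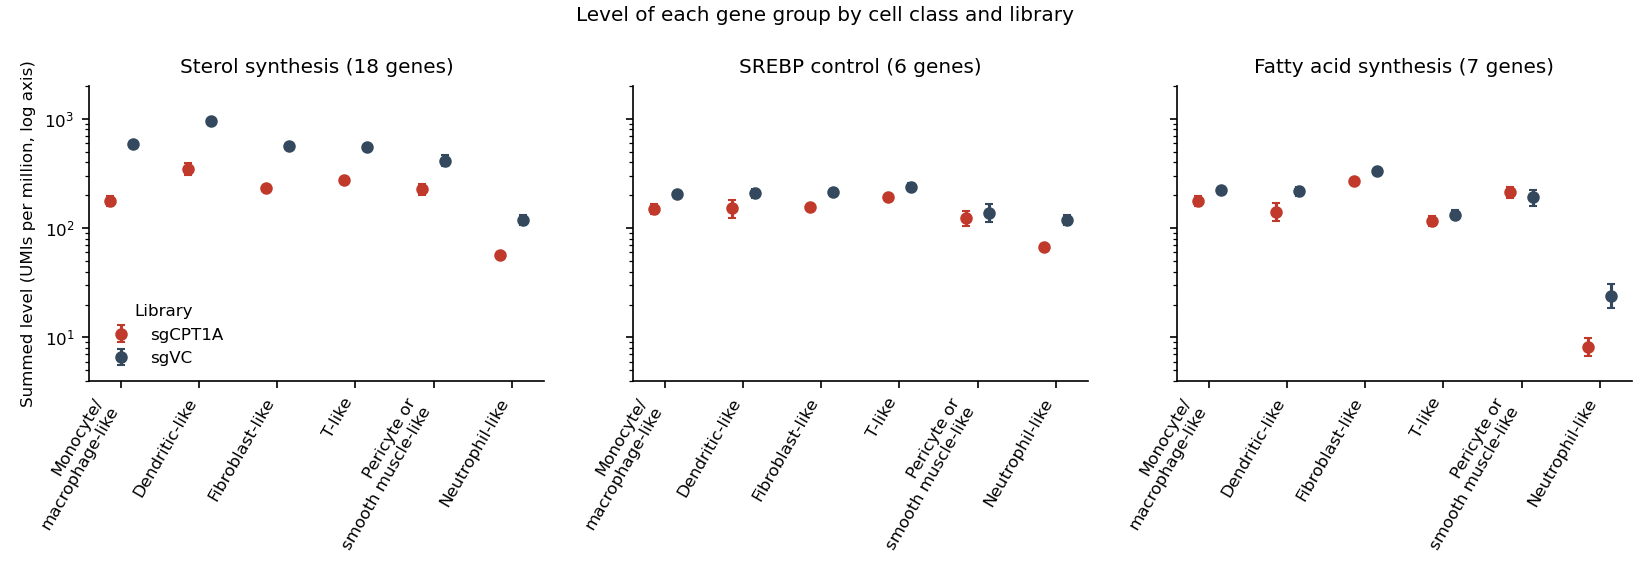
Summed level of the sterol, SREBP control and fatty acid genes (CPM, log axis) in 6 cell classes, with sgCPT1A (red) left of sgVC (dark), bars being exact 95% counting intervals on 1 library each. In the sterol panel every red point lies below its dark neighbour (177 and 589 CPM in monocyte/macrophage-like cells). In the fatty acid panel the points lie closer together than in the sterol panel, except in neutrophil-like cells (8.17 and 24.1 CPM). Red still lies below dark in dendritic-like cells (141 and 217 CPM) and, by less, in monocyte/macrophage-like and fibroblast-like cells.

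A sum is led by its most abundant genes, so the genes were also counted one by one. A gene was taken as measured in a class if both libraries together gave 20 UMIs or more, and counted as lower or higher past 1.5-fold. In monocyte/macrophage-like cells 24 of 30 measured genes were lower and 0 higher, where 25.1% of all genes tested were lower and 15% higher. In dendritic-like cells 18 of 24 were lower and 0 higher, against 20.3% and 15.5% of all genes. In fibroblast-like cells 18 of 31 were lower and 0 higher, against 13.5% and 16%. All 3 shares of lower genes were well above those of genes at large. T-like cells had 10 lower and 0 higher of 28, against 14.2% and 13.3%. Pericyte or smooth muscle-like cells had 7 lower and 2 higher of 22, against 18.6% and 22.9%, which is the share nearest to that of genes at large. Neutrophil-like cells had 14 lower and 0 higher of 19, against 35.7% and 17.4%. Some genes reached the 20 UMIs mainly through sgVC, so these counts describe the measured genes and not all 31. Among the sterol genes alone, 17 of 18 were lower in monocyte/macrophage-like cells, 14 of 18 in fibroblast-like cells, 12 of 14 in dendritic-like cells, 9 of 17 in T-like, 6 of 11 in pericyte or smooth muscle-like and 8 of 12 in neutrophil-like cells. Over all classes 66 of 90 measured pairs of sterol gene and class were lower and 0 higher, while among the fatty acid genes 10 of 30 pairs were lower and 1 higher. The same gene can be counted in several classes here. Of all genes between 13.5% and 35.7% were lower in a class. The fatty acid count was uneven by class. Lower were 4 of 6 measured genes in monocyte/macrophage-like, 3 of 4 in dendritic-like and 2 of 2 in neutrophil-like cells. In fibroblast-like cells 1 of 7 was lower, in T-like cells 0 of 5 and in pericyte or smooth muscle-like cells 0 of 6. The median ratio of the measured sterol genes was -1.40 in monocyte/macrophage-like cells, where the fatty acid genes had -0.96, and -1.38 in fibroblast-like cells, where the fatty acid genes had -0.26.

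**Figure D2:**
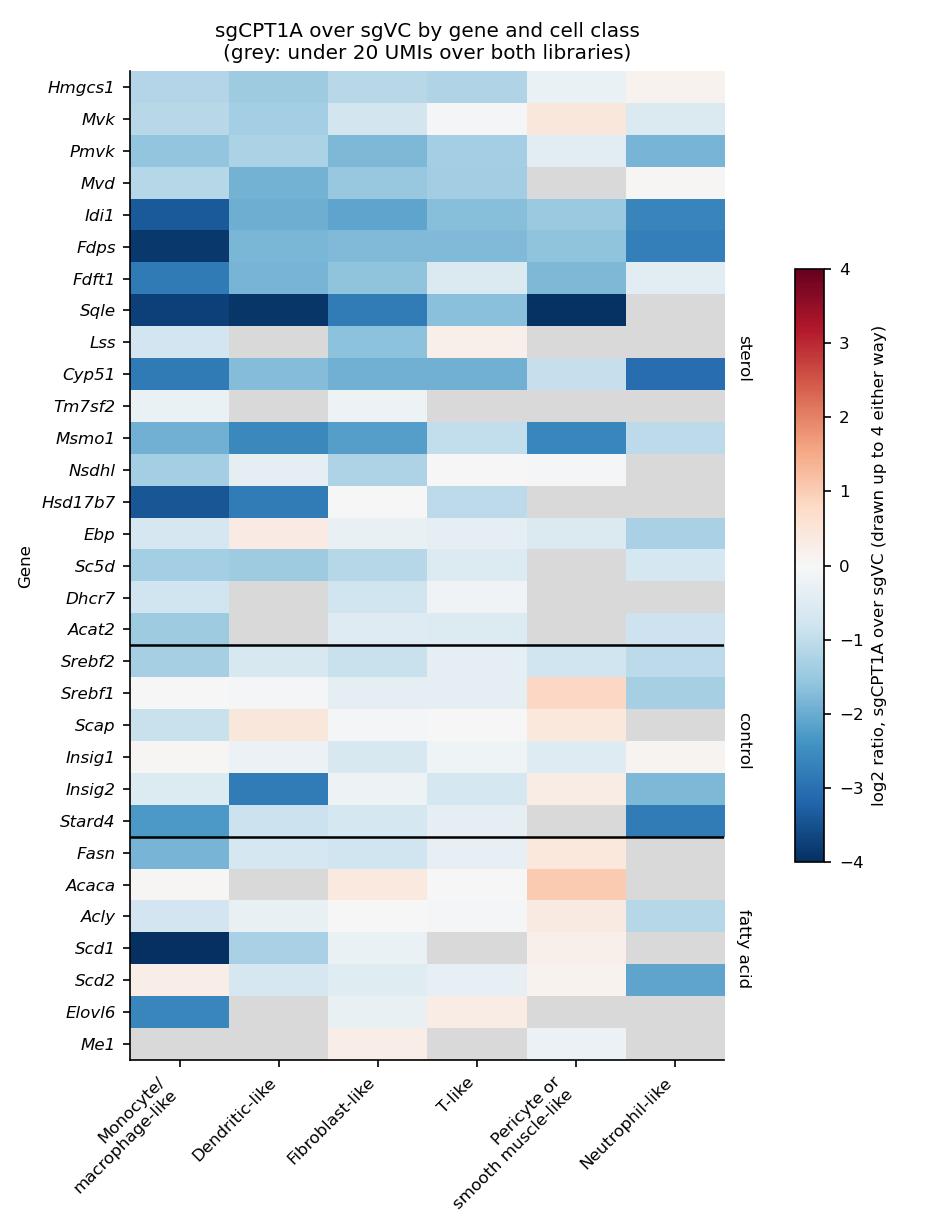
Log2 ratio of sgCPT1A over sgVC for each of the 31 genes (rows, in pathway order) in 6 cell classes (columns), blue for lower and red for higher in sgCPT1A, with the scale ending at 4 either way and grey for fewer than 20 UMIs. Blue covers most measured squares of the sterol block and is darkest in rows such as Idi1, Fdps and Sqle (Fdps at -3.85 in monocyte/macrophage-like cells). A few sterol squares are red, such as Mvk at 0.47 in pericyte or smooth muscle-like cells, and the fatty acid block is mixed. Scd1 in monocyte/macrophage-like cells had 0 UMIs in sgCPT1A and is drawn at the end of the scale.

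The first steps of the route lead from acetyl-CoA to mevalonate. Hmgcs1, which condenses acetyl-CoA with acetoacetyl-CoA, had 36.1 CPM (447 UMIs) in sgCPT1A and 77.4 CPM (464 UMIs) in sgVC in fibroblast-like cells, a log2 ratio of -1.10 (-1.29 to -0.91). In monocyte/macrophage-like cells it had 20.0 CPM (43 UMIs) in sgCPT1A and 45.5 CPM (427 UMIs) in sgVC, a ratio of -1.18 (-1.67 to -0.73). It was lower in 4 of 6 classes, and its ratio in neutrophil-like cells, 0.15 (-0.49 to 0.84), lay on the other side of 0. Acat2, the cytosolic thiolase that supplies acetoacetyl-CoA, was measured in 4 classes and was lower in 2, with ratios between -1.43 and -0.53. Mvk, Pmvk and Mvd phosphorylate and decarboxylate mevalonate in turn. Pmvk was lower in 5 of 6 classes, with 27.5 CPM (59 UMIs) in sgCPT1A and 82.6 CPM (776 UMIs) in sgVC in monocyte/macrophage-like cells, a ratio of -1.59 (-1.99 to -1.20). Mvd was lower in 4 of 5 classes and Mvk in 3 of 6, and Mvk had its highest ratio, 0.47, in pericyte or smooth muscle-like cells, where it rested on 24 and 10 UMIs.

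Idi1 (chr13:8885501-8892451, GRCm38, plus strand) and Fdps (chr3:89093588-89101959, minus strand), which make and join the isoprene units up to farnesyl diphosphate, were lower in all 6 classes. Fdps had 6.53 CPM (14 UMIs) in sgCPT1A and 94.1 CPM (884 UMIs) in sgVC in monocyte/macrophage-like cells, a log2 ratio of -3.85 (-4.73 to -3.10). That was the largest difference of any of the 31 genes with UMIs in both libraries of that class. In fibroblast-like cells it had 26.1 CPM (323 UMIs) in sgCPT1A and 88.4 CPM (530 UMIs) in sgVC, a ratio of -1.76 (-1.96 to -1.56), and in T-like cells 16.1 CPM (54 UMIs) in sgCPT1A and 55.4 CPM (187 UMIs) in sgVC, a ratio of -1.78 (-2.25 to -1.34). Of its 32 UMIs in sgCPT1A dendritic-like cells, 68.8% came from 1 cell, so the sgCPT1A level behind the ratio there, -1.84 (-2.42 to -1.32), rests largely on that cell. Idi1 showed the same order of classes at its ends, from -3.37 (-4.44 to -2.48) in monocyte/macrophage-like to -1.48 (-2.51 to -0.49) in pericyte or smooth muscle-like cells. The levels behind the first of these were 4.66 CPM (10 UMIs) in sgCPT1A and 48.2 CPM (453 UMIs) in sgVC.

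Past farnesyl diphosphate the route is committed to sterol. Fdft1, which makes squalene, was lower in 4 of 6 classes, with 2.8 CPM (6 UMIs) in sgCPT1A and 20.0 CPM (188 UMIs) in sgVC in monocyte/macrophage-like cells, a log2 ratio of -2.84 (-4.30 to -1.69), and 10.8 CPM (134 UMIs) in sgCPT1A and 32.8 CPM (197 UMIs) in sgVC in fibroblast-like cells, a ratio of -1.60 (-1.93 to -1.28). Sqle (chr15:59315077-59331192, plus strand), the squalene epoxidase and a rate-limiting enzyme, was lower in each of the 5 classes where it was measured. It had 5.25 CPM (65 UMIs) in sgCPT1A and 36.8 CPM (221 UMIs) in sgVC in fibroblast-like cells, a ratio of -2.81 (-3.23 to -2.41). In monocyte/macrophage-like cells it had 1.86 CPM (4 UMIs) in sgCPT1A and 24.7 CPM (232 UMIs) in sgVC, a ratio of -3.73 (-5.62 to -2.35), and in dendritic-like cells 2.68 CPM (2 UMIs) in sgCPT1A and 40.2 CPM (82 UMIs) in sgVC, a ratio of -3.91 (-6.97 to -2.01). The last pair of ratios rests on a handful of sgCPT1A molecules, and their intervals are wide. In T-like cells, with 8.66 CPM (29 UMIs) in sgCPT1A and 27.6 CPM (93 UMIs) in sgVC, the ratio was -1.67 (-2.32 to -1.05). Lss, which closes the ring to lanosterol, was lower in 2 of 3 classes and had 0.20 in T-like cells.

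Among the enzymes that trim lanosterol down to cholesterol, Cyp51 (chr5:4081145-4104746, minus strand), which removes the first methyl group, and Msmo1 (chr8:64718139-64733792, minus strand), which starts the removal of the next, were lower in all 6 classes. Cyp51 had 6.06 CPM (13 UMIs) in sgCPT1A and 43.1 CPM (405 UMIs) in sgVC in monocyte/macrophage-like cells, a log2 ratio of -2.83 (-3.75 to -2.04), and 18.5 CPM (62 UMIs) in sgCPT1A and 70.8 CPM (239 UMIs) in sgVC in T-like cells, a ratio of -1.94 (-2.36 to -1.53). Msmo1 had 6.7 CPM (83 UMIs) in sgCPT1A and 30.8 CPM (185 UMIs) in sgVC in fibroblast-like cells, a ratio of -2.20 (-2.59 to -1.82). Its ratios ran from -2.60 in pericyte or smooth muscle-like to -0.99 in T-like cells. Together with Idi1, Fdps and Sqle, these were the 5 genes of the set that were lower wherever they were measured. Nsdhl and Hsd17b7, partners of Msmo1 in demethylation, were less even: Hsd17b7 had 0.466 CPM (1 UMI) in sgCPT1A and 5 CPM (47 UMIs) in sgVC in monocyte/macrophage-like cells but 11.3 CPM (140 UMIs) in sgCPT1A and 11.3 CPM (68 UMIs) in sgVC in fibroblast-like cells, ratios of -3.42 (-8.76 to -0.88) and -0.004 (-0.43 to 0.44). Nsdhl was lower in 2 of 5 classes.

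Tm7sf2 and Ebp differed less. Tm7sf2, a sterol reductase with few UMIs, was measured in 2 classes and had ratios of -0.27 (-1.68 to 0.91) and -0.22 (-1.48 to 1.14) in monocyte/macrophage-like and fibroblast-like cells, with intervals that take in a 1.5-fold difference either way. Ebp, the sterol isomerase, had 53.1 CPM (658 UMIs) in sgCPT1A and 65.2 CPM (391 UMIs) in sgVC in fibroblast-like cells, a ratio of -0.30 (-0.48 to -0.11), and 65.7 CPM (220 UMIs) in sgCPT1A and 85.1 CPM (287 UMIs) in sgVC in T-like cells, a ratio of -0.37 (-0.63 to -0.11). It was lower in 2 of 6 classes and stood at 0.31 (-0.20 to 0.81) in dendritic-like cells. Without Ebp the sterol sum had a ratio of -1.97 in monocyte/macrophage-like, -1.47 in fibroblast-like and -1.16 in T-like cells, farther from 0 than with it. Sc5d and Dhcr7, which make the final double-bond changes, were lower in 4 of 5 and 2 of 3 classes. Sc5d had 15.5 CPM (192 UMIs) in sgCPT1A and 34 CPM (204 UMIs) in sgVC in fibroblast-like cells, a ratio of -1.13 (-1.43 to -0.84).

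Among the control genes, Srebf2, which encodes SREBP2 and is itself an SREBP2 target, was lower in 5 of 6 classes. It had 18.6 CPM (40 UMIs) in sgCPT1A and 46.6 CPM (438 UMIs) in sgVC in monocyte/macrophage-like cells, a log2 ratio of -1.32 (-1.83 to -0.85), and 22.7 CPM (281 UMIs) in sgCPT1A and 41.8 CPM (251 UMIs) in sgVC in fibroblast-like cells, a ratio of -0.88 (-1.13 to -0.63). Srebf1, which encodes SREBP1, stood at -0.03 (-0.54 to 0.46) in monocyte/macrophage-like and -0.39 (-0.66 to -0.12) in fibroblast-like cells. It was lower in neutrophil-like and higher in pericyte or smooth muscle-like cells. In the latter it had 26.5 CPM (34 UMIs) in sgCPT1A and 14.9 CPM (11 UMIs) in sgVC, a ratio of 0.83 (-0.18 to 1.96). Stard4, which moves cholesterol between membranes and is known as an SREBP2 target, was lower in 4 of 5 classes, with 3.73 CPM (8 UMIs) in sgCPT1A and 18.3 CPM (172 UMIs) in sgVC in monocyte/macrophage-like cells, a ratio of -2.30 (-3.53 to -1.28).

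Insig1, the sensor that holds SCAP back and is also known as a target of SREBP, did not go with the enzymes. In monocyte/macrophage-like cells it had 83.5 CPM (179 UMIs) in sgCPT1A and 80.3 CPM (754 UMIs) in sgVC, a ratio of 0.06 (-0.19 to 0.29), in the class where Fdps and Idi1 had their lowest ratios. Neutrophil-like cells had 41.5 CPM (569 UMIs) in sgCPT1A and 38.5 CPM (107 UMIs) in sgVC, a ratio of 0.11 (-0.19 to 0.42), and T-like cells 54.1 CPM (181 UMIs) in sgCPT1A and 61.1 CPM (206 UMIs) in sgVC, a ratio of -0.18 (-0.47 to 0.12). Only in fibroblast-like cells did it pass 1.5-fold, with 35.7 CPM (442 UMIs) in sgCPT1A and 56 CPM (336 UMIs) in sgVC, a ratio of -0.65 (-0.86 to -0.44). Its relative Insig2 was lower in 3 of 6 classes, the largest difference being in dendritic-like cells with 2.68 CPM (2 UMIs) in sgCPT1A and 18.6 CPM (38 UMIs) in sgVC, a ratio of -2.80 (-5.89 to -0.84). Scap was lower in 1 of 5 classes, monocyte/macrophage-like cells, at -0.89 (-1.77 to -0.12).

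In fatty acid synthesis Acly, which makes cytosolic acetyl-CoA from citrate for both routes, had 36.6 CPM (453 UMIs) in sgCPT1A and 36.8 CPM (221 UMIs) in sgVC in fibroblast-like cells, a log2 ratio of -0.01 (-0.25 to 0.23), and 40.9 CPM (137 UMIs) in sgCPT1A and 42.7 CPM (144 UMIs) in sgVC in T-like cells, a ratio of -0.06 (-0.41 to 0.29). It was lower in monocyte/macrophage-like cells, with 49.4 CPM (106 UMIs) in sgCPT1A and 84.7 CPM (795 UMIs) in sgVC, a ratio of -0.78 (-1.08 to -0.48). Acaca, the acetyl-CoA carboxylase, was lower in none of 4 classes and ranged from 0.01 to 1.04. Fasn, the synthase, was lower in 3 of 5 classes: it had 6.06 CPM (13 UMIs) in sgCPT1A and 21.8 CPM (205 UMIs) in sgVC in monocyte/macrophage-like cells, a ratio of -1.85 (-2.78 to -1.04), and 26.6 CPM (330 UMIs) in sgCPT1A and 45.8 CPM (275 UMIs) in sgVC in fibroblast-like cells, a ratio of -0.78 (-1.02 to -0.55). So within this group the synthase went with the sterol genes in those classes and the carboxylase did not.

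The 2 stearoyl-CoA desaturases, which make oleate from stearate, parted in monocyte/macrophage-like cells. Scd2 had 114 CPM (245 UMIs) in sgCPT1A and 95.6 CPM (898 UMIs) in sgVC, a ratio of 0.26 (0.05 to 0.46). Scd1 had 0 UMIs in sgCPT1A and 29 UMIs in sgVC (3.09 CPM), at least 2.21-fold lower when the 0 is set to 3 counts, while the exact interval for the fold starts at 1.68. In fibroblast-like cells both were near each other, Scd2 with 121 CPM (1496 UMIs) in sgCPT1A and 170.0 CPM (1020 UMIs) in sgVC, a ratio of -0.49 (-0.61 to -0.38), and Scd1 with 22.9 CPM (284 UMIs) in sgCPT1A and 27.5 CPM (165 UMIs) in sgVC, a ratio of -0.26 (-0.54 to 0.02). Scd2 gave 64.0% of the fatty acid UMIs of monocyte/macrophage-like cells in sgCPT1A and 43.1% in sgVC, and without it the ratio of that sum was -0.97. Elovl6, which lengthens palmitate, had 1.4 CPM (3 UMIs) in sgCPT1A and 8.52 CPM (80 UMIs) in sgVC there, a ratio of -2.61 (-4.91 to -1.01), but 11.3 CPM (140 UMIs) in sgCPT1A and 14 CPM (84 UMIs) in sgVC in fibroblast-like cells, a ratio of -0.31 (-0.71 to 0.10). Me1, the malic enzyme that yields NADPH, was measured in 2 classes and had 37.6 CPM (466 UMIs) in sgCPT1A and 31.3 CPM (188 UMIs) in sgVC in fibroblast-like cells, a ratio of 0.26 (0.02 to 0.52).

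Genes next to these routes were read from lists set out by name. Tmem97, a sterol-regulated membrane protein, went with the sterol enzymes: it had 9.79 CPM (21 UMIs) in sgCPT1A and 32.8 CPM (308 UMIs) in sgVC in monocyte/macrophage-like cells, a log2 ratio of -1.74 (-2.46 to -1.11), 7.47 CPM (25 UMIs) in sgCPT1A and 24.3 CPM (82 UMIs) in sgVC in T-like cells, a ratio of -1.70 (-2.41 to -1.04), and 33.8 CPM (419 UMIs) in sgCPT1A and 56.7 CPM (340 UMIs) in sgVC in fibroblast-like cells, a ratio of -0.74 (-0.95 to -0.53). Its list, of SREBP processing and sterol transport, was mixed. With Tmem97 included, 2 of 10 genes were lower and 3 higher in monocyte/macrophage-like cells. Fibroblast-like cells had 2 lower and 1 higher of 10, T-like cells 1 and 0 of 10, and dendritic-like cells 1 and 1 of 9. Across these classes, in that order, 25.1%, 13.5%, 14.2% and 20.3% of all genes were lower. The shares of higher genes were 15%, 16%, 13.3% and 15.5%. The list's counts of lower genes were thus near or below the share of genes at large. Lipa, the lysosomal lipase that frees cholesterol from its esters, had 102 CPM (218 UMIs) in sgCPT1A and 56 CPM (526 UMIs) in sgVC in monocyte/macrophage-like cells, a ratio of 0.86 (0.63 to 1.09).

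The targets of the oxysterol receptor LXR are known to rise with cell sterol, and some of them export cholesterol. Genes of the receptor and its targets were more often higher than lower in 5 of the 6 classes. Of 7 genes, 4 were higher and 0 lower in monocyte/macrophage-like cells, 3 and 0 in fibroblast-like, and 4 and 0 in pericyte or smooth muscle-like cells, where 15%, 16% and 22.9% of all genes were higher. Of 6 measured in T-like cells 3 were higher and 0 lower, and of 5 in dendritic-like cells 3 and 1, against 13.3% and 15.5% of all genes higher. Neutrophil-like cells, with 1 higher and 1 lower of 7, did not share this. The exporter Abca1 had 468 CPM (1004 UMIs) in sgCPT1A and 87.2 CPM (819 UMIs) in sgVC in monocyte/macrophage-like cells, a log2 ratio of 2.42 (2.29 to 2.56), and 136 CPM (1685 UMIs) in sgCPT1A and 51 CPM (306 UMIs) in sgVC in fibroblast-like cells, a ratio of 1.41 (1.24 to 1.60). Mylip, a ligase that removes lipoprotein receptors from the surface, had 146 CPM (314 UMIs) in sgCPT1A and 50.3 CPM (472 UMIs) in sgVC in monocyte/macrophage-like cells, a ratio of 1.54 (1.33 to 1.75), and 65.7 CPM (220 UMIs) in sgCPT1A and 23.1 CPM (78 UMIs) in sgVC in T-like cells, a ratio of 1.51 (1.13 to 1.90). The exporter Abcg1 had 105 CPM (78 UMIs) in sgCPT1A and 26.9 CPM (55 UMIs) in sgVC in dendritic-like cells, a ratio of 1.96 (1.44 to 2.48). Nr1h2, which encodes LXR-beta, lay within 1.5-fold in all 6 classes, for example at -0.21 (-0.57 to 0.14) in monocyte/macrophage-like cells. In neutrophil-like cells the phosphodiesterase gene Smpdl3a had 7.15 CPM (98 UMIs) in sgCPT1A and 29.8 CPM (83 UMIs) in sgVC, a ratio of -2.06 (-2.50 to -1.62).

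**Figure D3:**
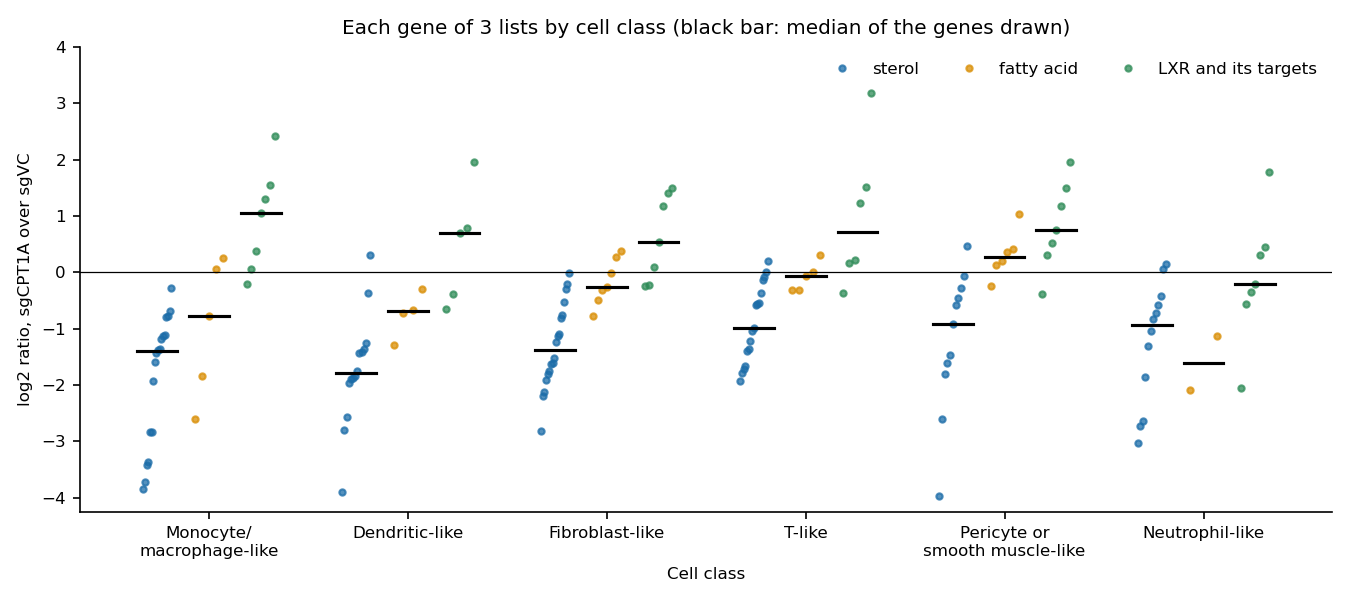
Log2 ratio of sgCPT1A over sgVC for each measured gene (1 point a gene, at least 20 UMIs over both libraries) of the sterol list (blue), the fatty acid list (orange) and the LXR list (green) in 6 cell classes; genes with 0 UMIs in a library are not drawn. In 5 classes the sterol points lie mostly below 0 and the LXR points mostly above it, as with Abca1 at 2.42 in monocyte/macrophage-like cells, and in neutrophil-like cells the LXR points lie on both sides.

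The isoprenoid branch, which uses farnesyl diphosphate for prenylation, dolichol and ubiquinone, had fewer such genes: 4 of 10 genes were lower in monocyte/macrophage-like cells, 2 of 10 in fibroblast-like, 2 of 10 in T-like and 0 of 6 in dendritic-like cells, with none higher in these 4 classes. Of all genes 25.1%, 13.5%, 14.2% and 20.3% were lower there, so the counts in fibroblast-like and T-like cells lie near that share. Pdss1, which builds the ubiquinone tail, had 0.932 CPM (2 UMIs) in sgCPT1A and 5.22 CPM (49 UMIs) in sgVC in monocyte/macrophage-like cells, a ratio of -2.48 (-5.57 to -0.55), while Nus1, of dolichol synthesis, had 0.22 (0.003 to 0.43). Of the genes of fatty acid supply, elongation, desaturation and esterification, 6 of 18 were lower and 3 higher in monocyte/macrophage-like cells. Fibroblast-like cells had 2 lower and 1 higher of 19, dendritic-like cells 5 and 0 of 13 and neutrophil-like cells 7 and 1 of 12. Of all genes 25.1% were lower in monocyte/macrophage-like, 13.5% in fibroblast-like, 20.3% in dendritic-like and 35.7% in neutrophil-like cells, so the fibroblast-like count is not above that share. In this list the desaturase Fads1 had 15.4 CPM (33 UMIs) in sgCPT1A and 36.7 CPM (345 UMIs) in sgVC in monocyte/macrophage-like cells, a ratio of -1.26 (-1.82 to -0.74), and the triglyceride enzyme Dgat2 had 29.4 CPM (63 UMIs) in sgCPT1A and 15 CPM (141 UMIs) in sgVC, a ratio of 0.97 (0.52 to 1.41). In neutrophil-like cells Dgat2 had 125 CPM (1715 UMIs) in sgCPT1A and 69.7 CPM (194 UMIs) in sgVC, a ratio of 0.84 (0.63 to 1.06). Of 5 genes of NADPH supply, 2 were lower in monocyte/macrophage-like cells, among them Idh2 at -1.49 (-1.91 to -1.08), and 0 in fibroblast-like cells, with none higher in either.

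Each class is a mixture, so the sums were also taken within 20 finer clusters of these classes that held at least 25 cells of each library. The 3 monocyte/macrophage-like clusters had sterol ratios of -1.78 (-2.03 to -1.54), -1.28 (-1.50 to -1.08) and -1.75 (-2.42 to -1.14). Cluster 8, led by Ccl24, H2-Ea and Mgl2, had 208 CPM in 85 sgCPT1A cells and 713 CPM in 657 sgVC cells. Its fatty acid ratio was -1.05 (-1.39 to -0.72), that of cluster 12, led by Pf4, C1qc and Arg1, was 0.16 (-0.05 to 0.36) and that of cluster 17 -1.06 (-1.96 to -0.26). The fatty acid genes were thus lower in clusters 8 and 17, whereas the interval of cluster 12 took in 0. In the 2 dendritic-like clusters the sterol ratios were -1.53 (-1.76 to -1.30) and -1.25 (-1.61 to -0.92), and in the 4 T-like clusters -1.03 (-1.20 to -0.86), -0.92 (-1.19 to -0.65), -0.95 (-1.62 to -0.29) and -0.81 (-1.02 to -0.59). Fibroblast-like cells were uneven. Cluster 19, led by Tnc and Crabp1, had 275 CPM in 111 sgCPT1A cells and 721 CPM in 232 sgVC cells, a ratio of -1.39 (-1.51 to -1.27). Cluster 21 had 287 CPM in 186 sgCPT1A cells and 381 CPM in 92 sgVC cells, a ratio of -0.41 (-0.55 to -0.27), and cluster 23 172 CPM in 130 sgCPT1A cells and 243 CPM in 61 sgVC cells, a ratio of -0.50 (-0.75 to -0.24). The class ratio of -1.28 therefore combines these ratios with the different share of cluster 19 in the 2 libraries. Among the 7 neutrophil-like clusters 6 had sterol ratios below 0, but the interval excluded 0 in 1, cluster 7, at -1.31 (-2.23 to -0.50). Most sgCPT1A neutrophil-like cells lay in clusters 0, 2, 4 and 10 and most sgVC ones in clusters 7, 13 and 15, so the ratio of -1.07 for the class sets different clusters of neutrophil-like cells against each other.

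**Figure D4:**
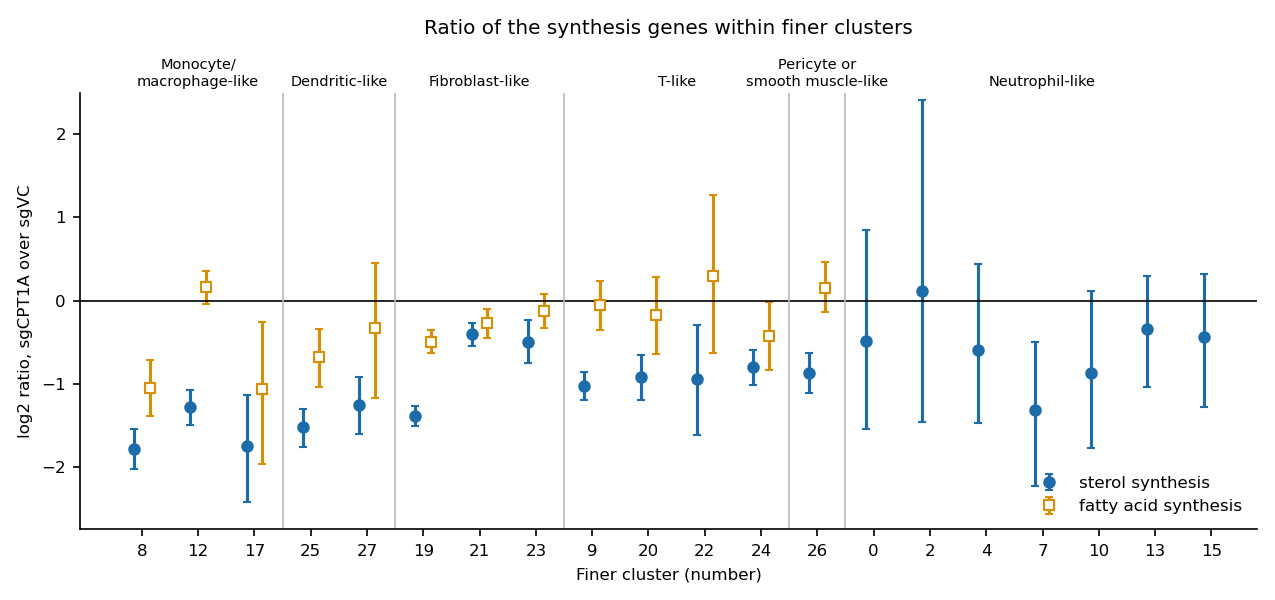
Log2 ratio of sgCPT1A over sgVC for the summed sterol genes (filled circles) and the summed fatty acid genes (open squares, left out for neutrophil-like clusters because of few UMIs) in each finer cluster, by class, with exact 95% counting intervals. Sterol ratios lie below 0 in every cluster outside the neutrophil-like ones, from -1.78 in cluster 8 to -0.41 in cluster 21, while fatty acid ratios reach 0 or above in several.

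The share of cells with at least 1 UMI of a sterol gene was compared after thinning every cell to 1000 UMIs, which left out shallower cells. In monocyte/macrophage-like cells it was 11.7% (8.13 to 16.1) of 274 sgCPT1A cells and 38.4% (35.7 to 41.2) of 1241 sgVC cells, against 53% and 72.9% before thinning. In dendritic-like cells it was 22.2% (12.7 to 34.5) and 53.8% (46.8 to 60.7), and in fibroblast-like cells 17.8% (14.6 to 21.4) and 34.2% (29.5 to 39.1). Before thinning the fibroblast-like shares were 85.8% and 87.6%, at median depths of 24739 and 14586 UMIs, so the difference appears once depth is made equal. T-like cells had 21.6% (18.1 to 25.4) and 32.5% (29.2 to 35.9), and neutrophil-like cells 5.12% (4.51 to 5.8) and 11.2% (9.63 to 12.9); before thinning these were 58.6% and 60.9%, and 13% and 15.3%, at median depths of 2629 and 1460 UMIs in neutrophil-like cells. A smaller share of sgCPT1A cells thus yielded a sterol transcript in these 5 classes at equal depth, with no overlap of the intervals. In pericyte or smooth muscle-like cells the shares were 24.6% (15.1 to 36.5) and 32% (19.5 to 46.7), whose intervals overlap, and 84.9% and 74.5% before thinning. No class is known to lack these genes, so that the share given by free RNA could be bounded only by the lowest class, the neutrophil-like cells. Single cells can carry a sum: 1 dendritic-like sgCPT1A cell held 23.4% of the sterol UMIs of its class, and without the top cell of each library the ratio was -1.77. In pericyte or smooth muscle-like cells 1 sgVC cell held 23.9%, and the ratio was -0.60 without the top cells.

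Other measures differed along with the sterol genes. All 8 genes of the dividing-cell list (Mki67, Top2a, Cdk1 and others) were at least 1.5-fold lower in fibroblast-like, pericyte or smooth muscle-like and monocyte/macrophage-like cells, 7 of 8 in T-like cells and 7 of 7 measured in dendritic-like cells. Neutrophil-like cells had 5 lower and 1 higher of 6 measured. Of all genes between 13.5% (fibroblast-like cells) and 35.7% (neutrophil-like cells) were lower in a class. The summed level of the dividing-cell list was 146 CPM in sgCPT1A and 369 CPM in sgVC in fibroblast-like cells, 91.4 and 274 CPM in monocyte/macrophage-like cells, 71 and 283 CPM in dendritic-like cells and 530.0 and 1127 CPM in T-like cells. It was 379 and 1445 CPM in pericyte or smooth muscle-like and 36.3 and 60.4 CPM in neutrophil-like cells. Among cells without any UMI of that list, monocyte/macrophage-like cells had 170.0 CPM in sgCPT1A and 567 CPM in sgVC, and fibroblast-like cells 223 and 581 CPM, a ratio of -1.38. In dendritic-like cells the ratio without them was -1.92, in T-like cells -0.88, and in pericyte or smooth muscle-like cells -0.35, where the levels of 223 CPM (176 to 279) in sgCPT1A and 285 CPM (213 to 375) in sgVC overlap in their intervals. In fibroblast-like cluster 19 the dividing-cell sum was 433 CPM in sgCPT1A and 313 CPM in sgVC, at a sterol ratio of -1.39. The other fibroblast-like clusters went the other way, with 78.7 and 421 CPM in cluster 21 and 84.9 and 383 CPM in cluster 23. Their sterol ratios were -0.41 and -0.50. The part of cell division in the sterol ratios was not tested.

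Transcripts of tumour markers in the other classes, which can come from free RNA, were more abundant in sgVC. The 6 tumour markers, at 100% in sgVC tumour-like cells, summed to between 0.23% and 3.75% of that level in the 6 sgCPT1A classes and to between 1.81% and 14.8% in the sgVC classes, and between 0 and 5 of the 6 were at 0 in a class of sgCPT1A, and 0 or 1 in a class of sgVC. Subtracting tumour RNA in that proportion removed 2.31% of the sgVC sterol level in monocyte/macrophage-like, 5.21% in fibroblast-like, 7.52% in dendritic-like, 6.2% in T-like, 16.2% in neutrophil-like and 26.8% in pericyte or smooth muscle-like cells, and the fatty acid level of neutrophil-like cells lost 36%. The ratios in neutrophil-like cells were then -0.86 for the sterol and -0.98 for the fatty acid genes. Neutrophil markers differed the other way. The 9 of them summed to 56129 CPM in the neutrophil-like cells of sgCPT1A and 82601 CPM in those of sgVC. They stood at 3511 CPM in sgCPT1A and 887 CPM in sgVC in monocyte/macrophage-like cells, and at 2186 and 698 CPM in dendritic-like cells. In fibroblast-like cells they stood at 732 and 198 CPM and in T-like cells at 2371 and 323 CPM. At most 1 of the 9 was at 0 in any of these. Neutrophil-like cells have the lowest sterol level and doublets remain in sgCPT1A. The part of these transcripts in the result was not tested. Malat1, a nuclear RNA, stood at 14363 CPM in sgCPT1A and 8502 CPM in sgVC in monocyte/macrophage-like cells. The ribosomal transcript Rn18s-rs5 stood at 48531 CPM in sgCPT1A and 16385 CPM in sgVC in monocyte/macrophage-like cells and at 27354 and 9992 CPM in fibroblast-like cells, and the part of either in the result was not tested. Pericyte or smooth muscle-like cells carried endothelial markers at 341 CPM in sgCPT1A and 1502 CPM in sgVC. Fibroblast markers there stood at 11004 CPM in sgCPT1A and 2451 CPM in sgVC, and neutrophil markers at 634 CPM in sgCPT1A and 327 CPM in sgVC. The makeup of this class differed as well, and its part was not tested. In fibroblast-like cells the 6 adipocyte markers summed to 0.646 CPM in sgCPT1A, with 4 at 0, and 65.7 CPM in sgVC, with 1 at 0. The part of adipocyte transcripts in the fibroblast-like levels and ratios was not tested.

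In the tumour-like cells, which are the bulk of the sgVC library, both routes stood above the other named classes pooled. The sterol sum was 750 CPM in tumour-like cells and 551 CPM in the others, a log2 ratio of 0.45 (0.42 to 0.47), and the fatty acid sum 338 and 214 CPM, a ratio of 0.66 (0.62 to 0.70), while the control genes stood at 198 and 201 CPM. With each cell thinned to 1000 UMIs these ratios were 0.88 for sterol and 1.40 for fatty acid genes. The fatty acid excess holds against the pool and not against every class. Fibroblast-like cells of sgVC had a fatty acid sum of 337 CPM (322 to 352), close to the 338 CPM of tumour-like cells. Of the 31 genes 11 were at least 1.5-fold higher and 3 at least 1.5-fold lower in tumour-like cells, where 32.4% of all genes were higher and 33.5% lower, so the share of higher genes was near that of genes at large. 5 of the 7 fatty acid genes and 5 of the 18 sterol genes were higher. Elovl6 had 42.1 CPM in tumour-like cells and 9.26 CPM in the other named classes, a log2 ratio of 2.18 (1.99 to 2.38), and Me1 39.4 CPM in tumour-like cells and 9.3 CPM in the other named classes, a ratio of 2.08 (1.89 to 2.28). Both were higher in tumour-like cells than in any other class with at least 50 sgVC cells. The next class was fibroblast-like cells for Me1, at 31.3 CPM, and pericyte or smooth muscle-like cells for Elovl6, at 16.3 CPM. Scd1, at 26.1 CPM in tumour-like cells and 9.57 CPM in the other named classes, had a ratio of 1.45 (1.26 to 1.64), but fibroblast-like cells reached 27.5 CPM. Among the sterol genes the highest ratios were those of Sqle, with 85.1 CPM in tumour-like cells and 27.1 CPM in the other named classes, a ratio of 1.65 (1.54 to 1.77), and Fdft1, with 64.2 CPM in tumour-like cells and 23.1 CPM in the other named classes, a ratio of 1.47 (1.35 to 1.60), the enzymes on both sides of squalene, followed by Msmo1 at 1.05 (0.95 to 1.15). Mvd, at 6.6 CPM in tumour-like cells and 18.9 CPM in the other named classes, had a ratio of -1.52 (-1.68 to -1.35), and Acly, at 33.2 CPM in tumour-like cells and 54.4 CPM in the other named classes, a ratio of -0.71 (-0.80 to -0.63). Acly was highest in monocyte/macrophage-like cells, at 84.7 CPM.

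The sterol sum of 750 CPM in tumour-like cells was below that of dendritic-like cells, 952 CPM. Pmvk stood at 62.5 CPM in tumour-like and 170.4 CPM in dendritic-like cells, and Idi1 at 48.3 CPM in tumour-like and 156 CPM in dendritic-like cells. Fdps came closer, with 136 CPM in tumour-like and 154 CPM in dendritic-like cells. For the control genes, Insig2 was higher in tumour-like cells, with 45.6 CPM in tumour-like cells and 26.1 CPM in the other named classes, a ratio of 0.80 (0.69 to 0.92), whereas Insig1 had 46.4 CPM in tumour-like cells and 63.9 CPM in the other named classes, a ratio of -0.46 (-0.54 to -0.38).

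**Figure D5:**
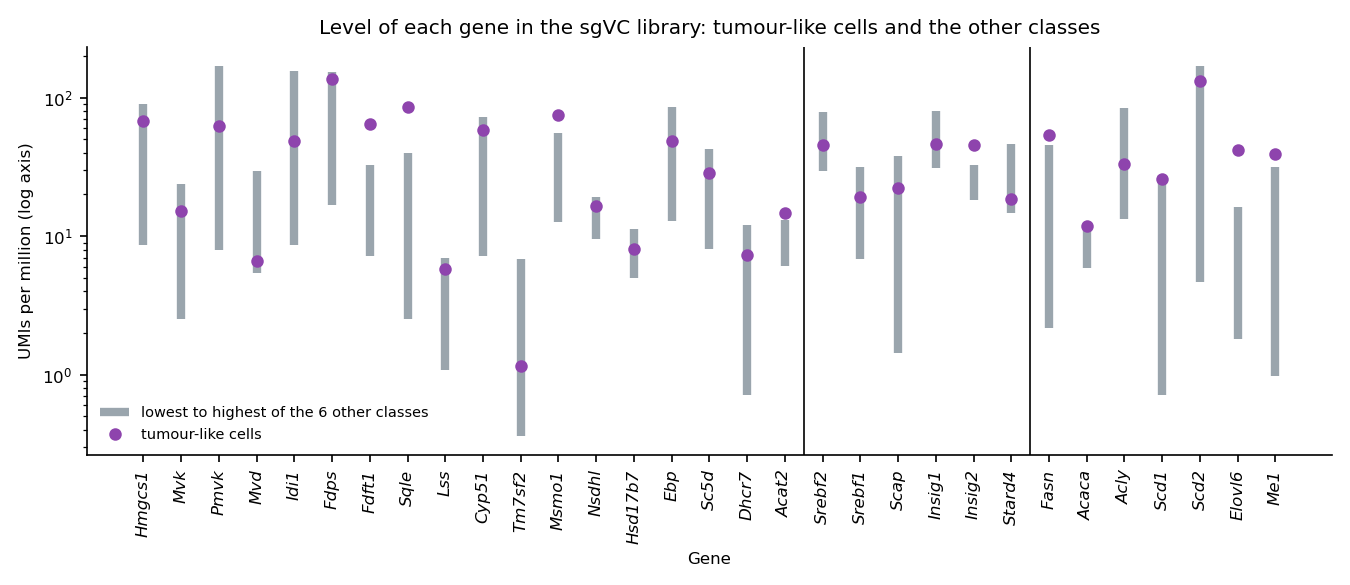
Level of each of the 31 genes in the sgVC library (CPM, log axis): tumour-like cells (purple points) and the span from the lowest to the highest of 6 other classes (grey bars; classes at 0 left out). Points for Fdft1, Sqle, Msmo1, Elovl6 and Me1, among others, lie above the grey bars (Elovl6 at 42.1 CPM), whereas Mvd, Tm7sf2 and Acly lie low within them (Mvd at 6.60 CPM).

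Within the tumour-like cells of sgVC the 2 routes ranked the clusters differently. Cluster 3 (1662 cells), in which the dividing-cell genes summed to 4419 CPM, had 833 CPM of sterol and 302 CPM of fatty acid genes. Cluster 0 (2214 cells), with 658 CPM of dividing-cell genes, had 699.8 and 386 CPM. Cluster 9 (584 cells), with 927 CPM of dividing-cell genes, had 417 and 322 CPM. The most strongly dividing cluster was therefore highest in sterol and lowest in fatty acid genes, while cluster 9 was below cluster 0 in both. Median depth, over the cells of both libraries, was 34259 UMIs in cluster 3, 20922 in cluster 0 and 11996 in cluster 9. The sterol sums follow that order, and the part of depth was not tested. Fdps had 165 CPM in cluster 3, 112 CPM in cluster 0 and 60.5 CPM in cluster 9. Scd2 had 102, 166 and 150.1 CPM in the same order and Scd1 18, 34.2 and 36.7 CPM, so that both desaturases were lowest where Fdps was highest. Sqle, with 80.6, 91.4 and 78.2 CPM, followed neither pattern, and Insig2 was highest in cluster 9, at 72.3 CPM. Over all tumour-like cells, those with a UMI of the dividing-cell list had 768 CPM of sterol and 335 CPM of fatty acid genes, and those without had 519 and 383 CPM, at median depths of 26067 and 14266 UMIs. The 11 tumour-like cells of sgCPT1A held 29 sterol UMIs in all, 62.1% of them in 1 cell, and are too few to compare.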

How the data were processed

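Single-cell RNA libraries of 1 sgCPT1A and 1 sgVC tumour were analysed. Per the file headers, the deposited values are UMI counts per gene and cell barcode made with Cell Ranger 7.1.0; the submitters' processing notes also name Seurat 4.1.0 and GRCm38. Gene positions come from GENCODE, which matched 52081 of the 55357 gene identifiers and all 31 members. Nothing before the deposited counts was rerun, and the sources used here do not state how reads over several genes were treated.

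Cells with fewer than 200 genes or more than 20% mitochondrial UMIs were left out, 455 in sgCPT1A and 280 in sgVC. Scrublet marked 287 doublets in sgVC (2.99%), which were removed, and 0 in sgCPT1A, where the caller is taken as not having worked, so doublets remain there. Both libraries were clustered together with scanpy 1.11.5 (2000 variable genes without members and listed pathway genes, 30 components, Leiden resolution 1), and clusters were named from marker lists. Without replicates, UMIs were summed per class and library; CPM carry exact Poisson intervals, shares exact binomial (Clopper-Pearson) intervals, and ratios intervals from the exact conditional binomial, all at 95% and for counting error only. A level of 0 was set to 3 counts for a bound. PCR duplicates are collapsed by UMI. Median depth was 2786 UMIs a barcode in sgCPT1A and 10809 in sgVC. The scripts were tested on simulated data. Of genes simulated without a difference, between 6.44% (fibroblast-like cells) and 15.3% (dendritic-like cells) passed 1.5-fold either way through counting error. A single gene past 1.5-fold in a class can thus be counting error.

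All 31 members may be named; of the other lists, genes with at least 50 UMIs and the 2 highest or 2 lowest ratios in a class. Members and lists were chosen with earlier results of these data known. Alternatives covered cell filters, doublets, cluster resolution, naming by cell, weighting, thinning, free RNA, dividing cells and thresholds.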

Additional observations from a re-analysis of the deposited data

How the results depend on the processing

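The sterol ratio of sgCPT1A over sgVC stayed below 0 in all 6 classes under every alternative run on whole classes (of the finer clusters, neutrophil-like cluster 2 had 0.12), between -2.12 and -1.62 in monocyte/macrophage-like, -1.92 and -1.27 in dendritic-like, -1.39 and -1.22 in fibroblast-like, -1.08 and -0.78 in T-like, -0.92 and -0.35 in pericyte or smooth muscle-like and -1.28 and -0.77 in neutrophil-like cells. No result moved beyond its counting interval with Leiden resolution 0.5 or 2, with pathway genes among the variable genes, or within clusters of at least 50 cells of each library. The values that moved are given below, and the cause of each move was not tested.

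With each cell thinned to 1000 UMIs, the sterol ratio was -2.12 in monocyte/macrophage-like and -0.78 in T-like cells, and the fatty acid ratio -0.57 in monocyte/macrophage-like, -0.44 in fibroblast-like and 0.20 in T-like cells; that of dendritic-like cells turned to 0.049. The tumour-like ratio over the other classes was then 0.88 for sterol and 1.40 for fatty acid genes. With every cell weighing the same, it was 0.98 and 1.47, the sterol ratio of pericyte or smooth muscle-like cells was -0.59 and the fatty acid ratio of monocyte/macrophage-like cells -0.56. With doublets kept, the sterol ratio was -1.39 in fibroblast-like cells, the fatty acid ratio -0.55 in monocyte/macrophage-like and -0.77 in T-like cells, and the tumour-like ratio 0.34 for sterol and 0.48 for fatty acid genes.

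In cells with no UMI of the dividing-cell list, the sterol ratio was -1.38 in fibroblast-like, -1.92 in dendritic-like, -0.88 in T-like and -0.35 in pericyte or smooth muscle-like cells, and the fatty acid ratio -0.47 in monocyte/macrophage-like and 0.68 in pericyte or smooth muscle-like cells. With classes from each cell's own markers, the sterol ratio was -0.63 in pericyte or smooth muscle-like and -1.28 in neutrophil-like cells, and 0.49 for tumour-like cells over the others. With a floor of 500 genes a cell and a ceiling of 10% mitochondrial UMIs, the tumour-like ratio was 0.40 for sterol and 0.62 for fatty acid genes. With free tumour RNA subtracted, neutrophil-like cells had -0.86 for sterol and -0.98 for fatty acid genes. Relative to the median gene, they had a sterol ratio of -0.77 and a median sterol ratio of -0.63.

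With members of at least 1 UMI, the median sterol ratio was -1.59 in dendritic-like and -0.79 in T-like cells, and the median fatty acid ratio -1.14 in monocyte/macrophage-like, -0.32 in T-like and -2.70 in neutrophil-like cells. In pericyte or smooth muscle-like cells, 1 gene was higher past 2-fold, and with at least 50 UMIs 1 gene was lower and 0 higher. Chosen after seeing the data, leaving out the cell with the most UMIs gave a sterol ratio of -0.60 in pericyte or smooth muscle-like and -1.77 in dendritic-like cells, and the finer clusters are given in the report.

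No paired analysis was possible because each group has 1 library. With 1 library a group, the 2 tumours, their handling and the depletion cannot be told apart, and no interval here covers differences between animals. The intervals of levels and ratios do not cover the spread between cells either. Fewer than 10 UMIs in sgCPT1A stand behind several of the largest ratios, whose intervals are wide. The 11 tumour-like cells of sgCPT1A allow no comparison of the cells that carry the depletion.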
